A study of Mus musculus with 12 samples.

Results

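The 9 genes described here make and release glucose in the newborn liver, or control its store as glycogen. They were taken by symbol from tables that list reads on 24421 genes, and all 9 were found. *Pck1*, *Pcx* and *Fbp1* encode enzymes of gluconeogenesis, *G6pc* and *Slc37a4* the enzyme and the transporter that turn glucose 6-phosphate into free glucose, *Tat* an enzyme that breaks down tyrosine, *Ppargc1a* a transcriptional coactivator, and *Gys2* and *Pygl* the liver forms of glycogen synthase and glycogen phosphorylase.

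RNA had been sequenced from the liver and the lung of WT (*Man1a2* +/+) and null (*Man1a2* -/-) newborn mice, bred from *Man1a2* +/- parents of the tm1.1Ahe line and dissected within the first hour after birth. Each of the 4 groups of genotype and tissue held 3 libraries, from 3 mice of each genotype, and no group received a treatment. The null allele is a deletion in every cell of the animal, so the genotype acts on all tissues and not on the liver alone. The null lungs of this line do not expand and the pups die of respiratory failure, so WT and null livers also come from pups in different states, and genotype and state cannot be told apart here.

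Before birth, glucose reaches the fetus through the placenta, and the liver lays down glycogen. At birth this supply stops, insulin falls while glucagon and adrenaline rise, and the liver turns to breaking down glycogen and making glucose. Glucagon acts through cyclic AMP, which raises transcription of *Pck1*, *Tat* and *Ppargc1a* through CRE sites, and PGC-1α, the product of *Ppargc1a*, in turn coactivates gluconeogenic genes with HNF4A, FOXO1 and the glucocorticoid receptor. Insulin lowers *Pck1* and *G6pc*.

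The promoters of the genes whose control by cyclic AMP is best known, and of the genes whose levels were called different between genotypes in liver, are shown for reference. They come from RefSeq on GRCm38.p6, which gave 11 promoters for 8 of the 9 genes, each with 250 bases before and 50 bases after the annotated start. The *Pck1* promoter (chr2:173152823-173153122, plus strand) holds TTACGTCA, the CRE of this gene, from 93 to 86 bases before the start, and the *Ppargc1a* promoter (chr5:51567676-51567975, minus strand) holds its core ACGTCA from 50 to 45 bases before the start. The *G6pc* promoter (chr11:101367466-101367765, plus strand) holds TATAAA, and the *Pygl* promoter (chr12:70227634-70227933, minus strand) holds none of the motifs searched. Capitals mark these matches, and each line runs 5′ to 3′ on the strand of the gene.
Pck1: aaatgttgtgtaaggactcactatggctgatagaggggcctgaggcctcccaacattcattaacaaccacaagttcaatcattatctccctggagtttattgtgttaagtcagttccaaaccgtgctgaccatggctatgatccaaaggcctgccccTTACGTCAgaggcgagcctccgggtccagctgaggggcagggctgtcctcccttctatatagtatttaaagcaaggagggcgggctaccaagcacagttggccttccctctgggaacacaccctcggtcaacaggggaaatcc
Ppargc1a: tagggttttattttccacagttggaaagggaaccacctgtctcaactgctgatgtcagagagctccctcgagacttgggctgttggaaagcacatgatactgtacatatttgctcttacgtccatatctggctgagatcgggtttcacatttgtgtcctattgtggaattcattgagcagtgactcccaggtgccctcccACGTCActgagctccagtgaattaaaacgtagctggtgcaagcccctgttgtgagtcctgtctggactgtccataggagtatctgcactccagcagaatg
G6pc: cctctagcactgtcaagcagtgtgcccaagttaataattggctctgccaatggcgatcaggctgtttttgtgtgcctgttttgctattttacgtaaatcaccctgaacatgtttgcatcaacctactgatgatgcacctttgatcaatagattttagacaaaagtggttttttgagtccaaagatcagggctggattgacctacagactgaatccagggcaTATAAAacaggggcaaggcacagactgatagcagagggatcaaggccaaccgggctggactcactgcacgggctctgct
Pygl: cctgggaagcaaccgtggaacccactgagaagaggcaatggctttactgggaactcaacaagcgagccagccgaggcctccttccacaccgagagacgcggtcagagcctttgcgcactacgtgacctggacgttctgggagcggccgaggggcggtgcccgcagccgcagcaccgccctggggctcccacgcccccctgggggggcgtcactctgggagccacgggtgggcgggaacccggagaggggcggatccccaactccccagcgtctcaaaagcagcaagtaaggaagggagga

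Of 32851 promoters of the same length, 0.499% held TTACGTCA, 7.51% held ACGTCA and 13.6% held TATAAA on either strand. ACGTCA lies within TTACGTCA and within TGACGTCA. Among the 11 promoters, ACGTCA was also found in 2 of the 3 of *Slc37a4*, which overlap and hold the same site. The third held TATAAA only. The full palindrome TGACGTCA (1.79% of promoters), the FOXO element GTAAACA (3.65%), the insulin element CAAAACAA (2.51%), the glucocorticoid half-site TGTTCT (19%) and CAAAGTCCA of HNF4 (0.475%) were in none of the 11 windows. Only the exact letters given were searched, so sites with other spellings would be missed, and their absence was not tested. These are descriptions of 300 bases of sequence and were not measured in these mice.

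Libraries held 26759463 to 42914295 counted reads, at which 3 reads of a gene are 0.0699 to 0.112 CPM, the read count scaled to the size of the library. *Man1a2* was the check of the labels. In liver it stood at 67.5, 40.7 and 52.5 CPM in WT libraries 1 to 3 and at 40.4, 36.8 and 38.7 CPM in the null libraries, and in lung at 137, 99.5 and 141 CPM against 56.7, 64.3 and 66.3 CPM. All null libraries lay below all WT libraries of their tissue, by log2 fold changes of -0.47 ± 0.17 (SE) in liver and -1.01 ± 0.18 in lung, with adjusted p = 0.0809 and 0.0614 in edgeR's quasi-likelihood test. The null allele lacks exon 2, and whole-gene counts still include reads from the remaining exons.

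A pair of libraries stood apart. Null liver 1 and null lung 1 carried transcripts of skeletal muscle, with a summed level of 6 muscle markers of 5870 and 12800 CPM against 4.55 to 7.79 CPM in the other livers and 25 to 66.5 CPM in the other lungs. The library labelled null lung 1 went against its label: its 8 lung epithelium markers summed to 637 CPM against 25600 to 32400 CPM in the other lungs, *Sftpc* stood at 35.3 CPM against 15700 to 22500 CPM, and 6 adipocyte markers summed to 394 CPM against 26.1 to 35.8 CPM. The 8 hepatocyte markers summed to 174000 to 214000 CPM in all 6 livers, null liver 1 included. Fits of null against WT were therefore repeated without null liver 1 or null lung 1. In liver, the genes described here and the lists of other pathway genes further below are given both ways, as are the main lung results. In whole tissue, fewer cells of a type and less RNA per cell cannot be told apart.

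Per kb of exon, *Fbp1* was the most abundant of the genes in WT liver, at 1150 ± 83.6 CPM per kb (SD, n = 3), followed by *G6pc* at 605 ± 80.1 and *Pck1* at 580 ± 85.3. *Tat* (253 ± 26.8) and *Pcx* (243 ± 25.6) came next, then *Slc37a4* (95.8 ± 15.5), *Gys2* (60.6 ± 4.16), *Pygl* (44.2 ± 2.85) and *Ppargc1a* (6.12 ± 0.714 CPM per kb). Among neighbours in this order, *G6pc* and *Pck1* overlapped between libraries, as did *Tat* and *Pcx*, and the others did not. In null liver *Fbp1* had the highest mean (1010 ± 193 CPM per kb) but overlapped *Pck1* (663 ± 249), which now stood above *G6pc* (361 ± 91.1 CPM per kb) with no overlap, and *Pygl* (79.4 ± 15.9) stood above *Gys2* (63.7 ± 11.1), with overlap.

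In the comparison of null with WT liver, 2 of the 9 genes were called different: *G6pc* was lower and *Pygl* was higher in null liver. A call required an adjusted p under 0.05 over all genes tested and a change of at least 1.2-fold. Over all 14343 genes tested the same rule called 26.9%, of which about as many were higher (13.5%) as lower (13.4%), so the share among the 9 genes lay near the background. Without null liver 1 *G6pc* and *Pygl* were again the genes called, against 23.8% of 14501 genes tested. The genotype groups did not overlap for *G6pc*, *Slc37a4* and *Pygl*, 3 of 9, against 46.6% of all genes tested.

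**Figure D1:**
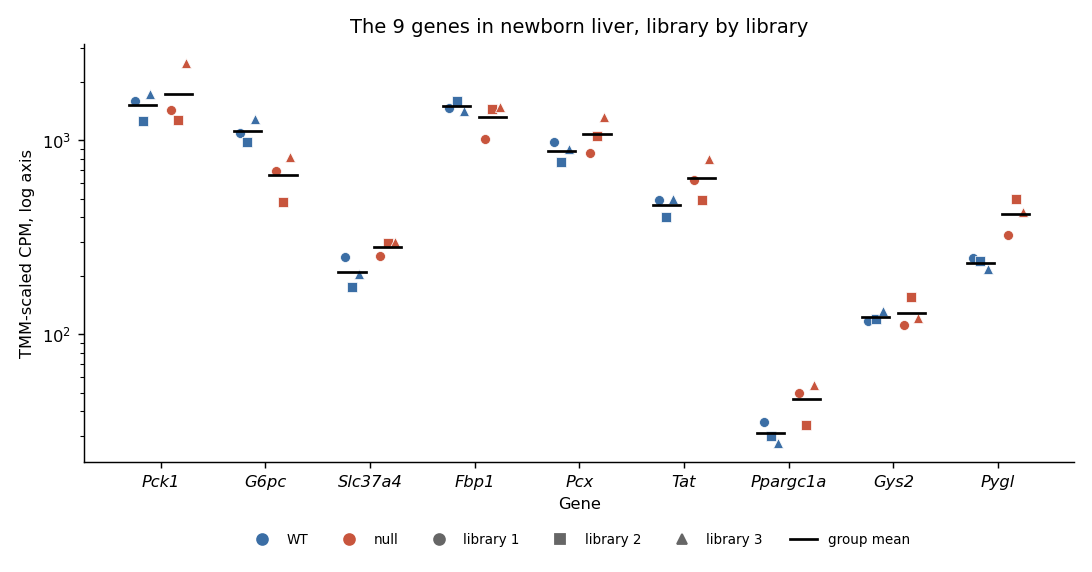
Level of each of the 9 genes in every liver library, as TMM-scaled CPM on a log axis that is not corrected for gene length. Blue marks WT and red null, circles, squares and triangles mark libraries 1, 2 and 3, and black bars are group means of 3 libraries. The null points of *G6pc* lie below and those of *Pygl* and *Slc37a4* above every WT point, while the points of *Pck1*, *Fbp1*, *Pcx*, *Tat*, *Ppargc1a* and *Gys2* interleave.

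*Pck1* (chr2:173153048-173159273, plus strand, GRCm38 as annotated in GENCODE M21, as for the other genes) encodes the cytosolic PEP carboxykinase, which commits oxaloacetate to gluconeogenesis. It stood at 1590, 1250 and 1720 CPM in WT livers 1 to 3 and at 1430, 1270 and 2500 CPM in null livers 1 to 3. Null liver 3 was the highest of the 6 and the other null livers lay within the WT range. The means were 1520 ± 241 and 1740 ± 670 CPM (SD, 3 libraries each). Their log2 difference was 0.19 ± 0.26 (SE) with adjusted p = 0.617, and its approximate 95% interval ran from -0.32 to 0.7. Without null liver 1 the difference was 0.31 ± 0.27 and was not called (adjusted p = 0.432).

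*Pcx* (chr19:4510472-4621752, plus strand), the mitochondrial pyruvate carboxylase that feeds oxaloacetate into the pathway, stood at 980, 768 and 901 CPM in WT livers and at 858, 1050 and 1310 CPM in null livers. The difference was 0.28 ± 0.18 on the log2 scale, with adjusted p = 0.267. Without null liver 1 it was 0.42 ± 0.17 and was not called (adjusted p = 0.101). *Pcx* overlaps *Lrfn4* on the opposite strand, so its reads are certain only if counting used the strand.

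*Fbp1* (chr13:62864753-62888282, minus strand), the fructose 1,6-bisphosphatase of liver, stood at 1470, 1590 and 1420 CPM in WT livers and at 1010, 1450 and 1480 CPM in null livers. The lowest value was that of null liver 1, the library with muscle transcripts, and the other null livers lay within the WT range. Null livers differed from WT by -0.19 ± 0.16 on the log2 scale (adjusted p = 0.426), and -0.02 ± 0.13 without null liver 1.

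*G6pc* (chr11:101367561-101377903, plus strand) encodes the catalytic subunit of glucose 6-phosphatase, the last step of both gluconeogenesis and glycogen breakdown. It stood at 1090, 976 and 1280 CPM in WT livers and at 690, 482 and 820 CPM in null livers. Every null liver lay below every WT liver. The means of 1120 ± 155 and 664 ± 170 CPM (SD, n = 3 each) gave a log2 fold change of -0.75 ± 0.21 (SE), or 1.68-fold lower, with adjusted p = 0.0335 in edgeR's quasi-likelihood test. The exact permutation test gave p = 0.1, the smallest it can give with 3 libraries against 3. Without null liver 1 the difference was -0.77 (adjusted p = 0.0475). The call was lost without WT liver 1 (adjusted p = 0.0838), WT liver 2 (0.0598), WT liver 3 (0.12) or null liver 2 (0.0522), although the log2 fold change stayed between -0.93 and -0.58.

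*Slc37a4* (chr9:44396852-44402968, plus strand), the transporter that carries glucose 6-phosphate into the endoplasmic reticulum where *G6pc* acts, had higher values in null liver without passing the test. It stood at 249, 176 and 203 CPM in WT livers and at 254, 294 and 298 CPM in null livers, so that null liver 1 lay just above WT liver 1. The log2 fold change was 0.43 ± 0.15 with adjusted p = 0.073, and the gene was not called. It was called with DESeq2 (adjusted p = 0.0254) and, in edgeR, with the trend on GC content and length removed (0.0458) and without WT liver 1 (0.0492).

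The ratio of reads between a pair of genes within 1 library does not depend on how libraries are scaled. The pairs were chosen after the values had been seen. *G6pc* had 4.36, 5.54 and 6.33 reads for each read of *Slc37a4* in WT livers and 2.72, 1.64 and 2.75 in null livers. Null livers thus held fewer *G6pc* reads for each *Slc37a4* read in all 3 libraries, with means of 5.41 ± 0.988 and 2.37 ± 0.633 and a difference of -1.21 on the log2 scale (exact permutation p = 0.1, the smallest possible). The ratio of *G6pc* to *Pck1* was 0.685, 0.778 and 0.746 in WT livers and 0.482, 0.379 and 0.327 in null livers, again without overlap, a difference of -0.91 on the log2 scale. That of *Pck1* to *Fbp1* overlapped, at 1.03 ± 0.216 in WT and 1.33 ± 0.412 in null livers.

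**Figure D2:**
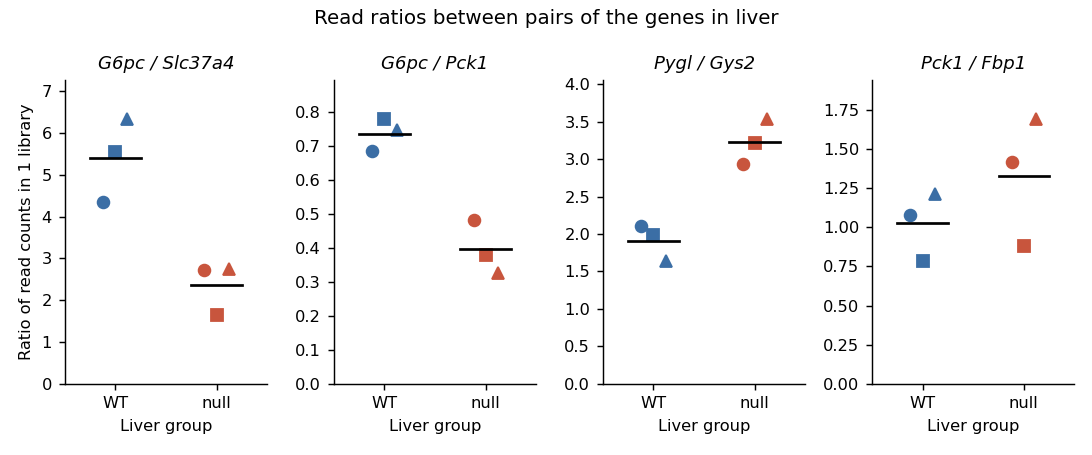
Ratio of the read counts of a pair of genes in each liver library, not corrected for gene length, with the y axis starting at 0. Blue is WT and red null, circles, squares and triangles are libraries 1, 2 and 3, and black bars are means of 3 libraries. *G6pc* over *Slc37a4* and *G6pc* over *Pck1* lie lower and *Pygl* over *Gys2* higher in every null library than in every WT library, and *Pck1* over *Fbp1* overlaps.

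*Tat* (chr8:109990437-109999803, plus strand) encodes tyrosine aminotransferase, a liver enzyme induced at birth by glucagon and glucocorticoids. It stood at 494, 401 and 500 CPM in WT livers and at 624, 490 and 797 CPM in null livers. Null liver 2 fell within the WT range and the other null livers lay above it. The log2 fold change was 0.45 ± 0.19 with adjusted p = 0.114, and 0.47 ± 0.22 (adjusted p = 0.145) without null liver 1. It was called in 1 of 6 fits that left out a library, that without null liver 2 (0.59, adjusted p = 0.049).

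*Ppargc1a* (chr5:51454250-51567726, minus strand) was the least abundant of the genes. It overlaps *Gm42613* on the opposite strand and *Gm42614*, *Gm42615* and *Gm43605* on its own strand, so its reads are not certain either. It stood at 35.1, 30 and 27.4 CPM in WT livers and at 50, 34.2 and 54.9 CPM in null livers. Null liver 2 lay just under WT liver 1, and the other null livers lay above all WT livers. The means were 30.8 ± 3.89 and 46.4 ± 10.8 CPM, with a log2 fold change of 0.59 ± 0.18 and adjusted p = 0.0501, at the edge of the threshold. It was called in 4 of 9 other settings (DESeq2, adjusted p = 0.0147) and without null liver 2 (0.75, adjusted p = 0.0125), and stood at 0.53 ± 0.2 (adjusted p = 0.094) without null liver 1. Its paralog *Ppargc1b* rose in null liver, from 4.58, 2.79 and 4.66 CPM to 15.5, 14.2 and 21.6 CPM, a log2 fold change of 2.09 ± 0.25 with adjusted p = 0.00301. All null livers stood far above all WT livers for *Ppargc1b*.

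*Pygl* (chr12:70190811-70231488, minus strand), the phosphorylase that releases glucose units from liver glycogen, showed the largest difference of the 9 genes. It stood at 246, 237 and 216 CPM in WT livers and at 326, 498 and 428 CPM in null livers. The lowest null liver was null liver 1, and all null livers lay above all WT livers. The means of 233 ± 15.1 and 418 ± 86.6 CPM gave a log2 fold change of 0.84 ± 0.17 (SE) with adjusted p = 0.0113 (exact permutation p = 0.1). Without null liver 1 the difference was 0.99 ± 0.14 (adjusted p = 0.00394), and without WT liver 3 it was 0.79 and not called (0.0568). *Pygl* overlaps the lincRNA gene *F730035M05Rik* on the opposite strand, so its reads too are certain only if counting used the strand.

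*Gys2* (chr6:142422613-142473109, minus strand), which builds liver glycogen, stood at 117, 120 and 132 CPM in WT livers and at 111, 155 and 121 CPM in null livers, with null values on both sides of the WT range. The log2 fold change was 0.07 ± 0.15 (adjusted p = 0.74, approximate 95% interval -0.21 to 0.36), and upper-quartile scaling gave -0.04. Without null liver 1 it was 0.17 ± 0.15 and was not called (adjusted p = 0.422). Within libraries, *Pygl* had 2.1, 1.98 and 1.64 reads for each read of *Gys2* in WT livers and 2.94, 3.22 and 3.53 in null livers. This ratio was higher in every null liver, by 0.76 on the log2 scale (exact permutation p = 0.1, the smallest possible). This pair too was chosen after the values had been seen.

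The forms of these enzymes that other tissues use were compared in the same fit. *Pygb*, the brain form of glycogen phosphorylase, was at 45, 48.1 and 47.3 CPM in WT livers and 44.4, 39.6 and 25.5 CPM in null livers (log2 fold change -0.36, adjusted p = 0.197). *Pygm*, the muscle form, was at 134 CPM in null liver 1 and at 2.28 to 4.89 CPM in the other livers, and its fitted log2 fold change of 4.07 ± 1.36 (adjusted p = 0.0616) became 0.59 ± 0.25 (adjusted p = 0.12) without that library. *Gys1*, the synthase of muscle and other tissues, was also highest in null liver 1, with 21.4 CPM in null liver 1, 4.97 and 4.63 CPM in the other null livers and 7.68 to 9.25 CPM in WT livers. Its log2 fold change was 0.28 (adjusted p = 0.734) with null liver 1 and -0.83 ± 0.18 (adjusted p = 0.015) without it. *Fbp2*, the muscle bisphosphatase, gave 1.57 (adjusted p = 0.26) with null liver 1 and -0.3 without it. *Pck2*, the mitochondrial carboxykinase (0.13, adjusted p = 0.372), and *G6pc3*, a widely expressed phosphatase (-0.23, adjusted p = 0.301), were not called, and *G6pc2*, the islet form, was too low to test.

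The genes whose level followed that of *Pygl* most closely over the 6 liver libraries were *Pipox* (Pearson r of log2 CPM 0.993), a peroxisomal oxidase, *Bphl* (0.99), a hydrolase, and *Zc3h13* (0.989), a subunit of the RNA m6A writer. Their own log2 fold changes in null liver were 0.61, 0.72 and 0.26. The correlation is a description over 6 libraries that share the genotype difference.

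The rest of the pathway was counted in 6 lists. Of 122 list genes tested in liver, 37 were called (30.3%), with 25 higher and 12 lower, near the 26.9% called over all genes tested (13.5% higher and 13.4% lower). Without null liver 1 the counts were 31 higher and 19 lower, where 23.8% of all genes were called. Upper-quartile scaling, which lowers the median over all genes by 0.11, gave 42 calls with 20 higher and 22 lower, so the split between directions depends on the scaling. The median log2 fold change over all genes tested was 0.02.

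Of 21 other genes of gluconeogenesis and substrate entry, 5 were lower and 0 higher, and the median was -0.12. Calls in this list were about as frequent as over all genes, of which 26.9% were called and 13.4% were lower. The 5 were *Gpd1*, which oxidises or makes glycerol 3-phosphate (from 273 ± 83.5 to 134 ± 32.6 CPM, log2 fold change -1.02 ± 0.25), the alanine aminotransferase *Gpt* (-0.96 ± 0.15), the mitochondrial carriers *Slc25a10* (-0.84 ± 0.19) and *Slc25a11* (-0.82), and the lactate and pyruvate transporter *Slc16a1* (-0.37, adjusted p = 0.0449, not called without null liver 1). *Slc2a2*, the glucose transporter of the hepatocyte membrane, gave -0.03 (adjusted p = 0.916). Of 8 enzymes that serve both directions of the pathway, 1 was called, *Gpi1* (0.6 ± 0.18, adjusted p = 0.0474), and the median was 0.25. Without null liver 1, 2 of these 8 were higher and 0 lower. Of the 21 genes above, 4 were then lower and 0 higher, where 23.8% of all genes were called.

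Of 18 glycolytic enzymes and controls, 5 were higher and 0 lower, with a median of 0.6, again near the 26.9% of all genes called (13.5% higher). They were hexokinase 2, *Hk2* (from 6.51 ± 1.46 to 14.7 ± 3.3 CPM, 1.17 ± 0.23), the phosphofructokinases *Pfkl* (0.95 ± 0.24) and *Pfkp* (0.76 ± 0.17), the pyruvate kinase *Pkm* (0.61) and the pyruvate dehydrogenase kinase *Pdk1* (0.68). Without null liver 1, 8 were higher and 0 lower, where 23.8% of all genes were called.

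Of 25 other glycogen genes, 7 were higher and 0 lower, with a median of 0.31, where 26.9% of all genes were called and 13.5% were higher. The largest rises were in *Ppp1r3g*, a subunit that targets protein phosphatase 1 to glycogen (from 13.1 ± 7.09 to 44.8 ± 13.6 CPM, 1.77 ± 0.38), *Ugp2*, which makes UDP-glucose for glycogen synthesis (0.96 ± 0.15), and *Pgm2l1*, which makes glucose 1,6-bisphosphate (0.79 ± 0.2). Without null liver 1 the same list gave 7 higher and 6 lower, against 23.8% of all genes called. The lower genes then included *Gys1* and *Ppp1r3c*, another glycogen-targeting subunit (-1.7 ± 0.36).

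Of 19 other genes of amino acid catabolism, 4 were lower and 0 higher, with a median of -0.32, below the 26.9% of all genes called (13.4% lower). They were *Aass* of lysine breakdown (-0.91 ± 0.19), *Agxt*, which handles glyoxylate and serine (-0.86 ± 0.19), *Sdsl*, a serine dehydratase-like gene (-0.85 ± 0.1), and *Cbs* (-0.49). Without null liver 1, 4 genes of this list were lower and 1 higher, where 23.8% of all genes were called. Of 31 genes of hormone sensing and transcription control, 12 were higher and 3 lower, with a median of 0.46, against 13.5% higher and 13.4% lower over all genes tested. Beside *Ppargc1b*, the largest rises were those of *Trib3*, a stress-induced pseudokinase (from 4.68 ± 0.861 to 19.6 ± 2.58 CPM, 2.07 ± 0.18), and *Nr4a1*, an immediate early nuclear receptor (1.84 ± 0.56, not called without null liver 1). For *Nr4a1*, null liver 2 (2.51 CPM) fell within the WT range of 2.2 to 3.25 CPM, and the call held in 1 of 6 fits that left out a library. Chosen after their values were seen, the partners of PGC-1α named above gave 0.66 for *Foxo1* (adjusted p = 0.00892), 1.02 for the glucocorticoid receptor gene *Nr3c1* (0.00201) and 0.11 for *Hnf4a* (0.565). The lower genes included *Esrra* (-1.05) and *Kat2a* (-0.55). Without null liver 1, 13 of the 31 genes were higher and 5 lower, where 23.8% of all genes were called.

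**Figure D3:**
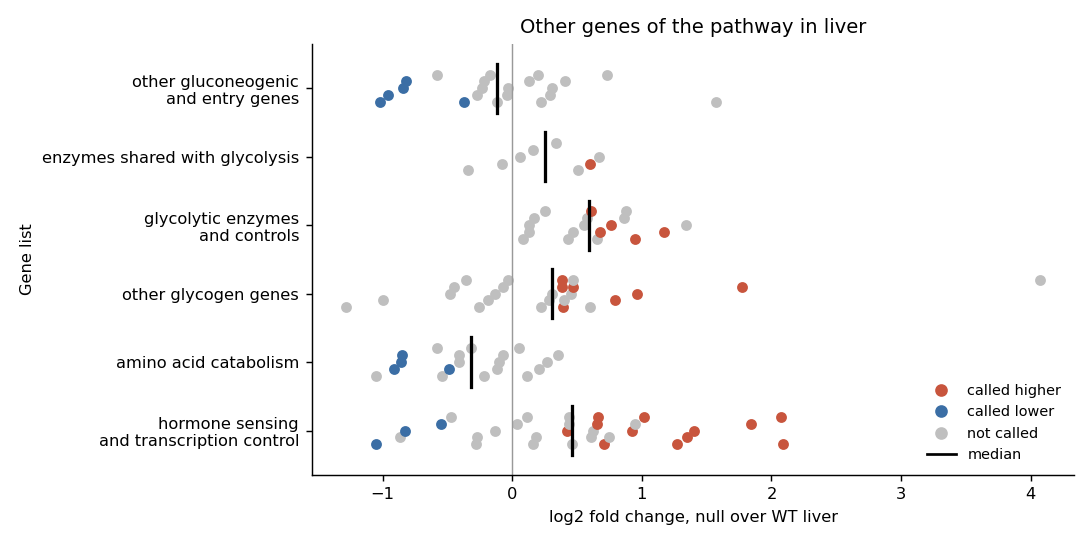
log2 fold change of null over WT liver for every tested gene of the 6 lists, 122 genes in all, with 1 point a gene. Red points were called higher, blue points called lower, grey points were not called, and black bars are list medians, which run from -0.32 for amino acid catabolism to 0.6 for glycolytic enzymes and controls. The grey point far to the right among the glycogen genes is *Pygm*, at 4.07.

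In lung, 5 of the genes were all but absent. Set against the WT liver mean with all 12 libraries on a common scale, *Pck1* stood at 0.0172% to 0.31%, *G6pc* at 0.0144% to 0.172%, *Fbp1* at 0.0319% to 0.263%, *Tat* at 0.0435% to 0.383% and *Gys2* at 0.0164% to 0.289%. The albumin gene *Alb*, a hepatocyte transcript, stood at 0.015% to 0.268% in the same lungs. WT lung 1 was the highest WT lung for *Alb* (0.257%) and for each of these 5 genes, and null lung 2 was the highest null lung for *Alb* (0.268%) and for each of them. The part of liver transcripts in these levels was not tested.

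The other 4 genes had lung levels far above that of *Alb*. *Slc37a4* stood at 2.4% to 5.23% of its WT liver mean, *Pcx* at 1.72% to 7.9%, *Pygl* at 10% to 28.4% and *Ppargc1a* at 23.1% to 187%. The lowest values of *Pcx* and *Pygl* and the highest of *Ppargc1a* were those of null lung 1, which went against its label. In the other lungs *Pcx* stood at 4.26% to 7.9%, *Pygl* at 19.8% to 28.4% and *Ppargc1a* at 23.1% to 106%. Per kb of exon, WT lung was led by *Pcx* (12.4 ± 2.18 CPM per kb), then *Pygl* (9.48 ± 0.748), *Slc37a4* (4.52 ± 0.449) and *Ppargc1a* (1.78 ± 0.321), and these neighbours did not overlap.

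**Figure D4:**
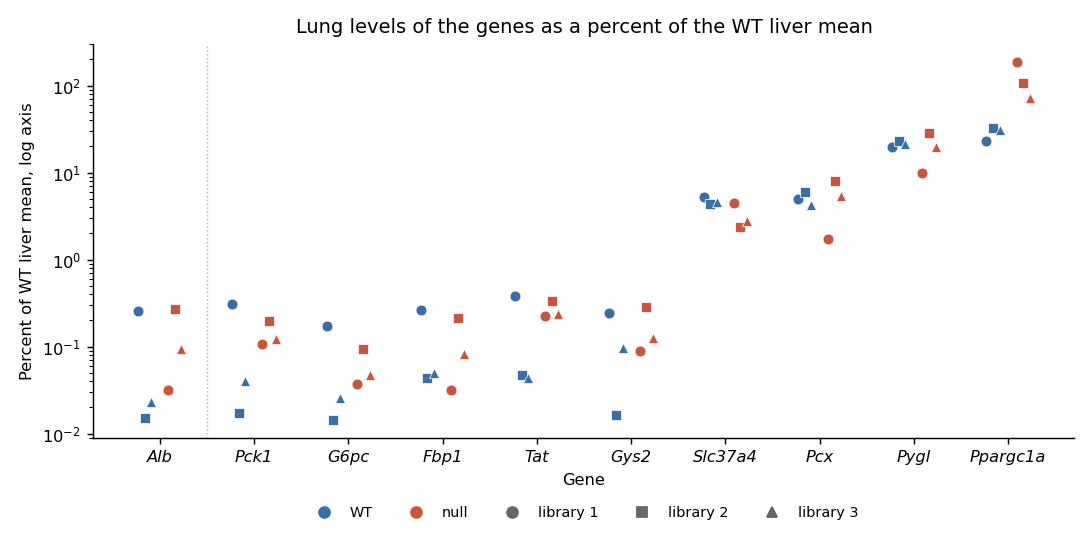
Level of *Alb* and of the 9 genes in each lung library as a percent of the same gene's mean in WT liver, on a log axis. Blue is WT and red null, and circles, squares and triangles are libraries 1, 2 and 3. *Pck1*, *G6pc*, *Fbp1*, *Tat* and *Gys2* lie below 1%, like *Alb*, and the null points of *Ppargc1a* lie between 72.1% and 187%, above all WT points. The point at 187% is null lung 1, which went against its label.

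Comparing WT liver with WT lung, all 9 genes were called higher in liver, against 37.2% of all 15635 genes tested. The log2 differences were 10.41 for *G6pc*, 9.7 for *Fbp1*, 9.65 for *Pck1*, 9.55 for *Gys2* and 9.23 for *Tat*, then 4.42 for *Slc37a4*, 4.3 for *Pcx*, 2.24 for *Pygl* and 1.8 for *Ppargc1a*. The other forms of the enzymes were not all arranged this way. *Gys1* (-1.42 ± 0.12) and *Pygm* (-1.36 ± 0.21) were lower in liver than in lung, *Pygb* (-0.12, adjusted p = 0.23) was not called, and *Pck2* (0.53 ± 0.12) and *Ppargc1b* (2.69 ± 0.25) were higher in liver.

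Null was compared with WT lung for the 8 genes that passed the filter on low counts, *Gys2* being too low. None was called by edgeR's quasi-likelihood test, and the only one with an unadjusted p under 0.05 was *Ppargc1a*. The same rule called 0.327% of the 15591 genes tested. *Ppargc1a* stood at 12.1, 17.5 and 16.5 CPM in WT lungs and at 101, 55.2 and 38.4 CPM in null lungs. Every null lung lay above every WT lung, which was so for 36.1% of all genes tested in either direction. The means of 15.4 ± 2.85 and 64.7 ± 32.2 CPM gave a log2 fold change of 2.07 ± 0.38 with adjusted p = 0.065. The highest value was that of the library labelled null lung 1, which held muscle and adipocyte transcripts. Without it the difference was 1.61 ± 0.2, with adjusted p = 0.00167, in a comparison in which 37.0% of 15885 genes were called. With all 6 libraries DESeq2 called it too (adjusted p = 1.9e-05).

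*Slc37a4* stood at 18.7, 15.6 and 16.5 CPM in WT lungs and at 16.4, 8.49 and 10.1 CPM in null lungs. Null lung 1 lay within the WT range and the other null lungs below it. The log2 fold change was -0.54 ± 0.28 (adjusted p = 0.284), and -0.86 ± 0.16 (adjusted p = 0.00674) without null lung 1. *Pygl* (78.6, 92.9 and 85.8 CPM in WT lungs, 40.8, 112 and 79.9 CPM in null lungs) and *Pcx* (75.7, 92 and 64.7 CPM in WT lungs, 26.5, 118 and 83.1 CPM in null lungs) were lowest in null lung 1 and overlapped. They gave log2 fold changes of -0.14 and -0.03, and of 0.16 and 0.38 without that library, and were not called either way. None of the 115 list genes tested in lung was called by edgeR, with 26 at an unadjusted p under 0.05. Without null lung 1, 33 of 119 were called higher and 14 lower, where 37.0% of all genes were called, and DESeq2 called 12 with all libraries.

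**Figure D5:**
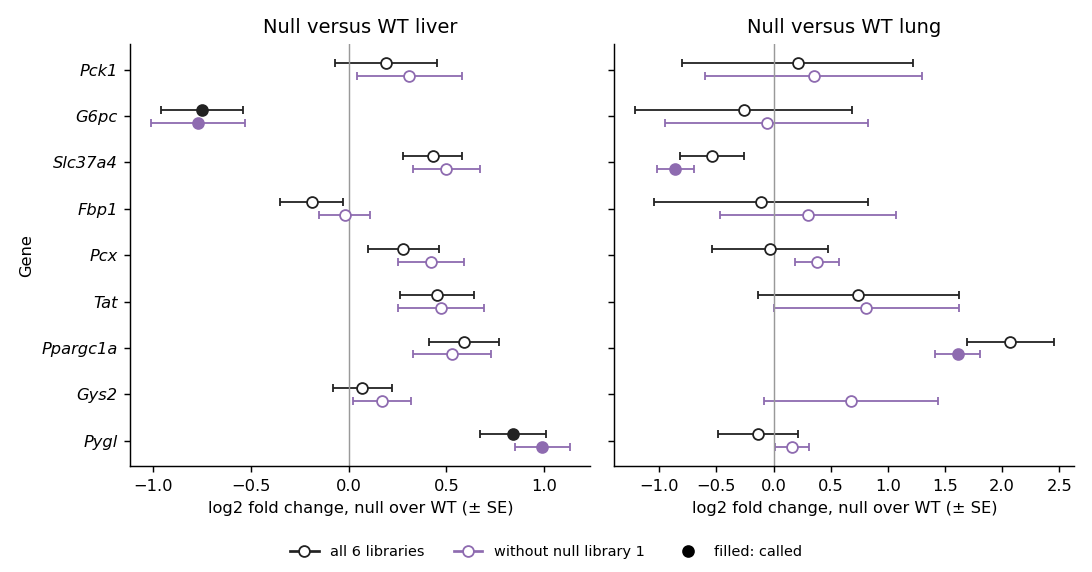
log2 fold change of null over WT for the 9 genes in liver (left) and lung (right), with bars of 1 SE. Black points use all 6 libraries of a tissue, purple points leave out null library 1, which held skeletal muscle transcripts, and filled points were called. *G6pc* and *Pygl* are filled in liver with and without that library, *Ppargc1a* and *Slc37a4* are filled in lung only without it, and *Gys2* was tested in lung only without it.

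The difference between the tissues was tested as an interaction over all 12 libraries, and none of the 9 genes was called by edgeR, against 0.371% of the 16155 genes tested. At an unadjusted p under 0.05 stood 3 of them. *Slc37a4* gave -0.98 ± 0.31 (lung minus liver, adjusted p = 0.214), *Pygl* -0.98 ± 0.43 (0.348) and *Ppargc1a* 1.48 ± 0.44 (0.187, and 0.0476 with DESeq2). That fit had no term for the mice that liver and lung share. With genotype and number as a block in edgeR, *Slc37a4* gave -1.04 (adjusted p = 0.249), *Pygl* -1.08 (0.207) and *Ppargc1a* 1.41 (0.251). Leaving out both null liver 1 and null lung 1, an alternative chosen after seeing the data, gave -1.36 for *Slc37a4* with adjusted p = 0.00806. With 2 null libraries in each tissue, the log2 fold change of *Slc37a4* was 0.5 in liver (adjusted p = 0.0609, not called) and -0.86 in lung (0.00674, called). For *G6pc* the interaction was 0.47 ± 1 (adjusted p = 0.882, approximate 95% interval -1.48 to 2.43). The interval is wide on both sides of 0, so this test cannot decide whether the tissues differ for *G6pc*.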

How the data were processed

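RNA of liver and lung from newborn *Man1a2* WT and null mice, 3 libraries a group and 12 in all, was made into stranded, polyadenylated libraries and read as pairs of 75 bp. The authors deposited 1 table per library, which holds raw, unscaled read counts by gene symbol. The submitters' processing notes name FastQC, STAR 2.5.2a, DESeq2 and mm10 without a role. The counting program, its annotation and its strand setting are not given in the sources used here, so genes that overlap another on the opposite strand are uncertain. *Slc37a4* overlaps the microRNA gene *Mir7085* on its own strand, and how such reads were counted is not given either.

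The analysis of the counts used edgeR 4.0.16 under R 4.3.3: filterByExpr, TMM scaling, the quasi-likelihood test and Benjamini-Hochberg adjustment over all genes tested. A standard error is the size of the log2 fold change divided by the square root of its F statistic. CPM are TMM-scaled within a tissue, and over all 12 libraries for percents of the WT liver mean, levels per kb and the comparison of the tissues. Exact permutation tests were two-sided and used log2(CPM + 0.5) for single genes and the log2 ratio of unscaled read counts for pairs of genes. Levels per kb used the union exon length of GENCODE M21 on GRCm38, which matched 95.6% of the 24419 distinct gene symbols, the same build as mm10. Depth was 26759463 to 42914295 reads a library, and CPM floors cover counting error only.

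The genes and lists were chosen with earlier results of these data known. Named genes were the 9 genes, *Man1a2*, paralogs of the 9, the 3 called genes with the largest change in each list, and the 3 genes most like the called gene of the 9 with the largest change. Other genes are marked as chosen after their values were seen, or make up a count of 5 or fewer. *Slc2a2*, *Ppp1r3c* and the marker genes are named outside this rule without such a mark. Of the called list genes that this rule would name, 1 is not reported here. The symbol *Gk* was not matched, and 27 names that a spreadsheet had turned into dates were tested but not named. The tests were tested on simulated data. Alternatives were DESeq2 1.42.0, other size factors and filters, all 12 libraries in 1 fit, removal of a trend on GC content and length, the replicate block and leaving out each library. No library was a copy of another of its group.

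Replicate numbers come from the labels. Deviations of same-numbered WT and null libraries correlated at -0.024, -0.002 and 0.143 in liver and -0.043, -0.039 and 0.099 in lung, so the numbers were not taken to pair genotypes. Those of liver and lung of the same genotype and number correlated at 0.184 to 0.468 in all 6 pairs, and the study's methods give 3 mice of each genotype for both tissues.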

Additional observations from a re-analysis of the deposited data

How the results depend on the processing

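In liver, the count of the 9 genes called was 2. It was 4 with DESeq2, which added *Slc37a4* and *Ppargc1a*, 0 with all 12 libraries in 1 fit, and 0 to 3 when a library was left out. *G6pc* was called in 7 of 9 other settings, but not with all 12 libraries (adjusted p = 0.523) or with the trend on GC content and length removed (0.0547), and *Pygl* in 8 of 9, but not with all 12 libraries (0.101). The count of list genes called in liver, 37, became 12 with all 12 libraries and 19 to 50 when a library was left out, and 6 of the 16 list genes named for their size kept their call without each library in turn. *Gpi1*, *Pfkl* and *Nr4a1* each kept it in only 1 of these 6 fits. In lung, the count of the 9 genes, 0, became 1 with DESeq2, 1 with all 12 libraries and 0 to 2 when a library was left out. That of list genes, 0, became 12 with DESeq2, 12 with all 12 libraries and 0 to 47. For the interaction, 0 became 1 with DESeq2, 1 without both libraries with muscle transcripts and 0 to 1 when a library was left out. The 9 calls between WT liver and WT lung held in all settings in which the genes were tested. The share of all genes called also changed with the setting, so these counts do not describe the 9 genes or the lists alone. In liver that share was 26.9% with all libraries and 23.8% without null liver 1. In lung it was 0.327% with all libraries and 37.0% without null lung 1. The causes of these changes were not tested.

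Log2 fold changes that turned direction belonged to genes that edgeR did not call with all libraries of the comparison. Some of the turned values were themselves called. Without null liver 1, *Gys1* was called lower in liver (-0.83). Without null lung 1, *Gys1* (-0.96), *Fbp2* (-1.56), *Pygb* (-0.52) and *Gpd1* (-1.13) were called lower in lung. Upper-quartile factors gave -0.04 for *Gys2* in liver, and removal of the GC and length trend gave 0.09 for *Pcx* in lung. The replicate number as a block gave -0.11 for *Gys1* in liver and, in lung, 0.45 for *G6pc*, 0.19 for *Fbp1*, -0.26 for *Fbp2*, -0.21 for *Gys1* and -0.28 for *Gpd1*. The block changed no other call of the 9 genes, in any comparison, by direction or threshold. When a library was left out, liver values ran from -0.17 to 0.36 for *Pck1*, -0.1 to 0.17 for *Gys2*, -0.3 to 2.11 for *Fbp2* and -0.83 to 0.63 for *Gys1*. Lung values ran from -0.3 to 2.3 for *Pck1*, -0.74 to 1.54 for *G6pc*, -1.02 to 1.24 for *Fbp1*, -0.5 to 0.38 for *Pcx*, -0.51 to 0.16 for *Pygl*, -1.56 to 2.12 for *Fbp2*, -0.96 to 0.66 for *Gys1*, -0.52 to 0.76 for *Pygb*, -1.13 to 0.84 for *Gpd1*, -0.68 to 0.1 for *Ppp1r3g*, -0.41 to 0.36 for *Aass*, -1.6 to 0.99 for *Agxt* and -0.09 to 0.7 for *Trib3*. Interaction values ran from -0.48 to 2.13 for *Pck1*, -0.01 to 2.32 for *G6pc*, -0.84 to 1.46 for *Fbp1*, -0.78 to 0.12 for *Pcx*, -0.15 to 2.1 for *Tat* and -0.27 to 1.46 for *Gys2*. In lung, levels of *Pck1*, *G6pc*, *Fbp1*, *Tat* and *Gys2* rest on few reads, and their wide errors leave changes of either sign possible.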
